A study of Mus musculus with 3 samples.

Results

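The Dlk1-Dio3 cluster is a group of microRNA (miRNA) genes in an imprinted domain of mouse chromosome 12. The 47 mature miRNAs described here were chosen by name among the 1915 entries of each library. Small RNA had been sequenced from 3 sources, with 1 library each. B16 is a melanoma line of the mouse (labels: C57BL/6J, skin, melanoma), and it gave 1 library of whole cells and 1 of its exosomes. JB6 is a skin line of the mouse (labels: BALB/c, skin, normal), of which the exosomes were sequenced. Exosomes, the small vesicles that cells release, had been collected from both lines by ultracentrifugation. No treatment is named, nothing says whether either line was 1 clone, and JB6 cells themselves were not analysed here, so line, strain and disease state cannot be told apart between the exosome libraries.

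In this domain the copies of a gene inherited from the mother and from the father differ in activity. Dlk1, Rtl1 and Dio3, which code for proteins, are read from the paternal chromosome. The long non-coding RNAs Meg3, Rian and Mirg and the miRNAs are read from the maternal one. Most of these miRNAs are abundant in the embryo, placenta and brain and scarce in most other adult tissues, and the human counterpart of the cluster is often silent in melanoma. A miRNA is cut from a hairpin, whose arms are called 5p and 3p, and it finds its target transcripts mainly through its seed, bases 2 to 8 of the mature strand.

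The hairpins of the 47 members span 180 kb at chr12:109563692-109743795 of the build GRCm38, and all are on the plus strand. Gaps of more than 10 kb divide them into 3 blocks. The first, at chr12:109563692-109595388, holds 13 members. Mir770 lies in an exon of Meg3, and the hairpins of miR-431, miR-433, miR-127, miR-434 and miR-136 lie opposite an exon of Rtl1, whose transcript these miRNAs can cleave because they match it fully. The second block, at chr12:109611500-109618336, holds miR-341-3p and miR-370-3p in introns of Rian. The third, at chr12:109709060-109743795, holds 32 members from miR-379 to miR-410, and 12 of them lie in annotated exons or introns of Mirg.

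Mature sequences of 44 members were matched by name in RefSeq (GRCm38.p6). They are shown 5′ to 3′ with the seed in capitals. The members on which the comparisons below turn are miR-127-3p and miR-379-5p, the members listed in all 3 libraries, and miR-409-3p and miR-543-3p, the most frequent members of the JB6 exosomes.
miR-127-3p: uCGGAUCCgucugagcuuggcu
miR-379-5p: uGGUAGACuauggaacguagg
miR-409-3p: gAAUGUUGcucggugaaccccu
miR-543-3p: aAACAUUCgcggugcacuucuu

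Some members resemble each other, which bears on how reads could be divided between them. No pair of the 44 members shared a seed. In 3 pairs the seeds differed at 1 base, which were miR-379-5p with miR-411-5p, miR-300-3p with miR-381-3p, and miR-376a-3p with miR-376b-3p. With unmatched bases at the ends of 1 sequence left uncounted, miR-300-3p and miR-381-3p were 2 edits apart. Their separate counts are therefore less certain than those of miR-127-3p, whose nearest other entry was 6 edits away by the same measure. The listed members of the first 2 pairs are given here, to be read beside miR-379-5p.
miR-411-5p: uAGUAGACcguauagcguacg
miR-300-3p: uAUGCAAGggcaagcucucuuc
miR-381-3p: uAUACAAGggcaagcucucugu

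The other members named with values are the following, shown to give the range of seeds among the members of the JB6 exosomes.
miR-493-3p: uGAAGGUCcuacugugugccagg
miR-433-3p: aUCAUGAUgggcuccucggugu
miR-370-3p: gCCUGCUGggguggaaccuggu
miR-323-3p: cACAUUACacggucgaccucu
miR-495-3p: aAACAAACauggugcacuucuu
miR-382-5p: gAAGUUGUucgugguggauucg
miR-134-5p: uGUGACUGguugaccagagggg
miR-369-3p: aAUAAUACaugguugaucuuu

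The libraries differed greatly in depth, and this set what could be seen. B16 cells had 7925726 miRNA reads, JB6 exosomes 4495956 and B16 exosomes 45677. No count from 1 to 9 was listed, so a listed 0 stands for at most 9 reads. In reads per 1000000 miRNA reads (RPM) that limit is 1.14 for B16 cells, 2.002 for JB6 exosomes and 197 for B16 exosomes. Mature miRNAs here are 19 to 25 bases long, and levels were not corrected for length. Since each group is 1 library, there is no replicate check and no test between libraries. The 95% intervals are exact (Clopper-Pearson) and cover counting error of reads only, not differences between samples. No molecular identifiers are named that would tell repeated reads of 1 molecule apart, so the intervals may be too narrow. The fixed markers of the melanocyte lineage, miR-211-5p and miR-204-5p, were both listed in B16 cells, at 2667 RPM in sum. B16 exosomes listed miR-211-5p alone, at 1817 RPM, and JB6 exosomes miR-204-5p alone, at 3.11 RPM. Of 7 epithelial and keratinocyte markers B16 cells listed 4, at 24.9 RPM in sum, and B16 exosomes 0. JB6 exosomes, labelled as from a skin line, listed 2, at 7.78 RPM, and there miR-200a-3p, miR-200c-3p, miR-141-3p, miR-429-3p and miR-205-5p were at 0.

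JB6 exosomes listed the most members of the cluster, and their summed share was above that of B16 cells. Of 47 members 20 were listed there (42.6%), against 20.3% of all entries in that library. In B16 cells 11 were listed (23.4%), against 29.2% of all entries, and in B16 exosomes 2 (4.26%), against 7.78%. Members listed in at least 1 library numbered 23. The other 24 were at 0 in all 3 libraries.

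The listed reads summed to 387 in B16 cells, which is 48.8 RPM (44.1 to 53.9). They summed to 46 in B16 exosomes, which is 1007 RPM (737 to 1343), and to 24773 in JB6 exosomes, which is 5510.1 RPM or 0.551% of miRNA reads. Read as they are listed, the cluster was scarcest in the cells and most frequent in the JB6 exosomes. The zeros widen these values unequally. With 9 reads for each member at 0, the sum could reach 89.7 RPM in B16 cells, 5564 RPM in JB6 exosomes and 9874 RPM in B16 exosomes. The order of the exosome libraries in summed share is therefore not resolved on miRNA totals. The JB6 exosome share exceeded that of B16 cells by 113-fold (102 to 125), and by at least 61.4-fold if every member at 0 in the cells had 9 reads. On miRNA totals the B16 exosome share exceeded that of the cells by 20.6-fold (14.8 to 28.05), and by at least 11.2-fold by the same reckoning. Against the authors' larger totals, the summed cluster stood at 4403 RPM in JB6 exosomes, 54.3 RPM in B16 exosomes and 44.4 RPM in B16 cells. The excess of B16 exosomes over the cells was small on these totals. With 9 reads for each member at 0 in the cells, the order of the B16 libraries is not resolved there. On the authors' totals JB6 exosomes stayed above B16 exosomes, also with 9 reads for each member at 0 in B16 exosomes. Reads assigned to miRNAs made up 79.9%, 5.39% and 90.9% of those totals.

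**Figure D1:**
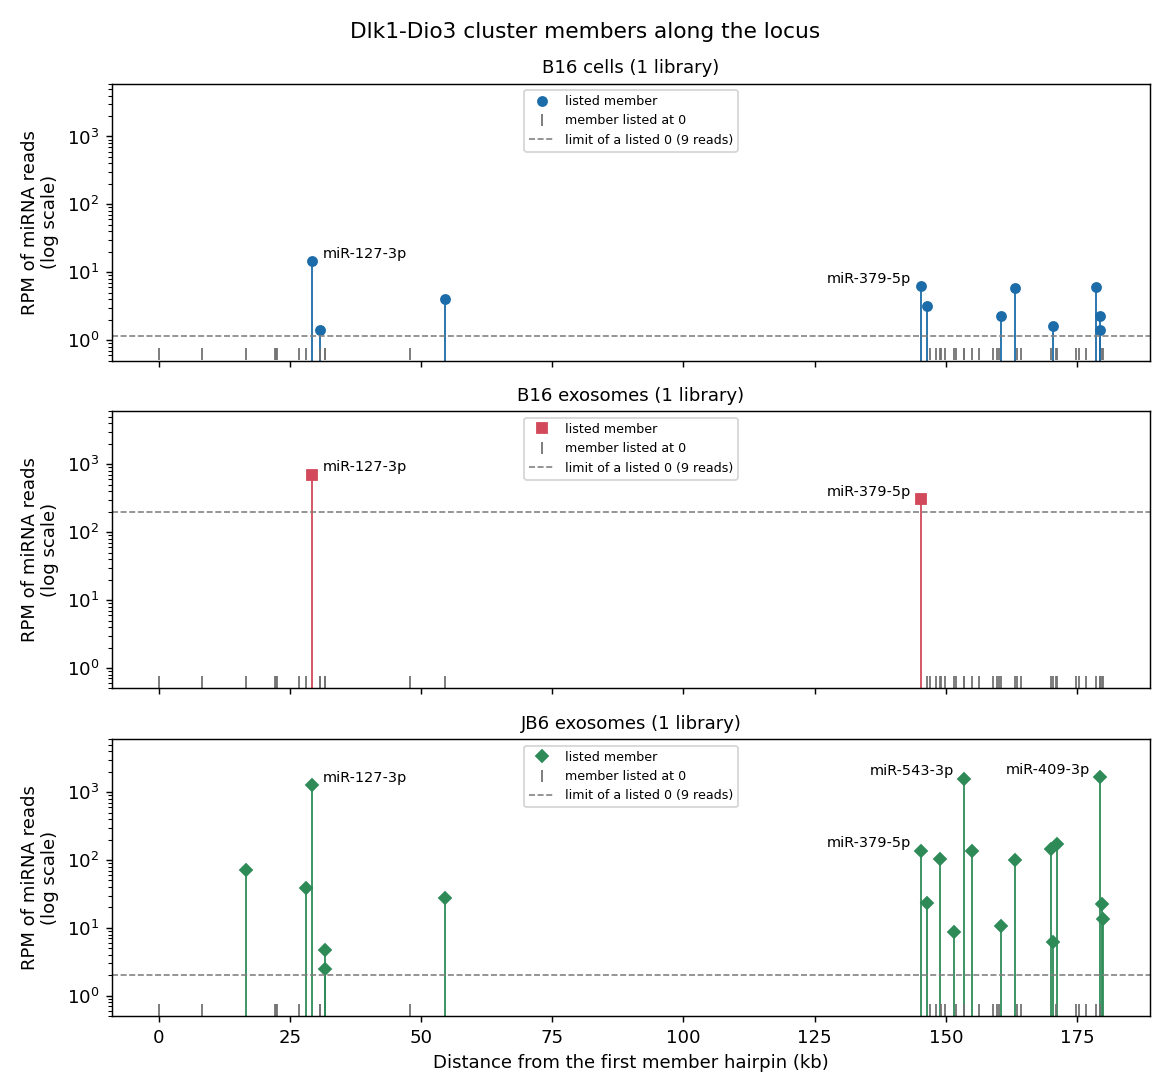
Level of each member in RPM of miRNA reads (log scale) by distance of its hairpin from the first one in kb, with 1 panel per library. Symbols on stems are listed members, grey ticks at the foot are members listed at 0, and the dashed line is the level of 9 reads. JB6 exosomes list 5, 1 and 14 members in the blocks from left to right, and B16 exosomes list miR-127-3p and miR-379-5p only.

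Members of every block were listed in both deep libraries. In B16 cells the listed members numbered 2 of 13 in the first block, 1 of 2 in the second and 8 of 32 in the third. The blocks gave 32.6%, 8.27% and 59.2% of the 387 reads. In JB6 exosomes the listed members numbered 5 of 13, 1 of 2 and 14 of 32, and the blocks gave 25.1%, 0.492% and 74.4% of the reads. In the second block miR-341-3p was at 0 in all libraries. Of the 7 members opposite Rtl1, 4 were listed in JB6 exosomes and 2 in B16 cells.

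The reads were concentrated in few members in the JB6 exosomes. miR-409-3p, miR-543-3p and miR-127-3p together held 20156 reads, 81.4% of the cluster's reads in that library. miR-409-3p lies in an intron of Mirg and had 7462 reads, or 1660 RPM, rank 45 among all entries. miR-543-3p, of the third block, had 7009 reads, or 1559 RPM, and rank 47. miR-127-3p, opposite Rtl1, had 5685 reads, or 1264 RPM, and rank 50. The remaining 17 listed members fell well below these and reached at most 173 RPM, the level of miR-485-5p. miR-382-5p at 147 RPM (136 to 158), miR-379-5p at 137 RPM (126 to 148) and miR-495-3p at 136 RPM (126 to 147) had overlapping counting intervals, so these neighbours were not told apart.

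In B16 cells the reads were spread over more even, low counts. miR-127-3p was again among the leading members, with 115 reads, 29.7% of the cluster's reads (25.2 to 34.5), at rank 297. miR-379-5p, the first miRNA of the third block, had 49 reads, miR-541-5p 48 and miR-381-3p 47. These 3 did not differ beyond counting error. miR-370-3p, from an intron of Rian, had 32 reads and miR-411-5p, the neighbour of miR-379-5p, had 25. The other members listed there had 11 to 18 reads.

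JB6 exosomes were set against B16 cells, the deep libraries of the series, where cell line and vesicle against cell cannot be told apart. Members of the cluster with enough reads to compare were higher in the JB6 exosomes with 1 exception. A member with 30 or more reads over the pair was called higher or lower when its share differed at least 2-fold and the interval excluded 1. Of 47 members 19 had enough reads, and 18 were higher and 1 lower, against 26.1% higher and 60.7% lower among 501 entries. The median log2 ratio was 4.47 over those 19 and -1.75 over all 501, with 9 reads for each listed 0. Of the 18 higher members 10 were at 0 in B16 cells, and these had enough reads only because they were frequent in the JB6 library, so the count is a description and not evidence for the cluster. The scaling moves all ratios of a comparison alike. DESeq2 size factors shifted each log2 ratio here by 2.58, TMM factors by 1.35 and the authors' totals by -0.19, and the 18 members were higher under each of them. Among all entries the calls went from 131 higher and 304 lower to 204 and 134 with DESeq2 and to 165 and 202 with TMM.

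The 8 members listed in both deep libraries show the difference without a listed 0. This choice leaves out the 3 members that the cells listed and JB6 exosomes did not, so the set leans to higher ratios. miR-127-3p went from 14.5 RPM in B16 cells to 1264 RPM in JB6 exosomes, 87.1-fold higher (72.5 to 105.8). miR-409-3p had 18 reads, or 2.27 RPM, in the cells and was 731-fold higher (462 to 1234). miR-379-5p, at 6.18 RPM in the cells, was 22.1-fold higher (16.5 to 30.2). The ratios of these members thus covered a wide range. miR-381-3p was 16.7-fold higher (12.4 to 23.1), and its near relative miR-300-3p was 4.70-fold higher (2.68 to 8.59), with 48 reads against 18. miR-411-5p was 7.47-fold higher (4.80 to 12.07), with 106 reads against 25. miR-370-3p was 6.72-fold higher (4.52 to 10.3), with 122 reads against 32. The smallest difference was that of miR-134-5p, a brain miRNA that limits the growth of dendritic spines, which had 28 reads against 13 and was 3.80-fold higher (1.90 to 7.98).

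The other 10 higher members were at 0 in B16 cells, and their ratios are lower bounds taken at 9 reads. miR-543-3p was at least 1373-fold higher, or 723-fold with counting error. miR-485-5p, which acts at synapses in neurons, had 777 reads in JB6 exosomes and was at least 152-fold higher. miR-382-5p, with 660 reads, was at least 129-fold higher. With counting error these bounds are 79.8-fold and 67.7-fold, so they are not told apart from the ratio of miR-127-3p. miR-495-3p with 612 reads was at least 119.9-fold, miR-323-3p with 468 reads at least 91.7-fold and miR-493-3p with 326 reads at least 63.9-fold higher. miR-433-3p with 176 reads was at least 34.5-fold and miR-369-3p with 101 reads at least 19.8-fold higher. miR-410-3p and miR-494-3p were at least 11.9-fold and 7.64-fold higher. The remaining members of the JB6 exosomes were both arms of miR-136, with 11 and 21 reads, too few for the rule.

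**Figure D2:**
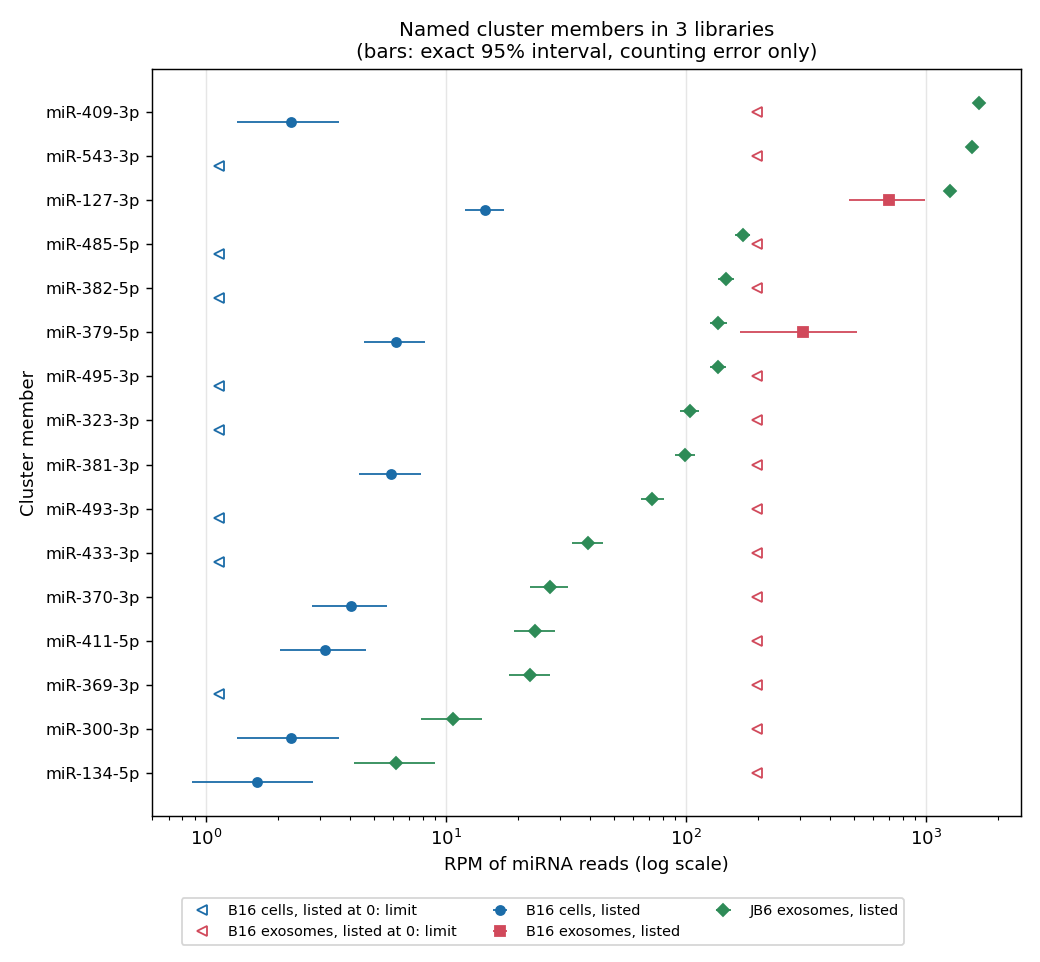
RPM of miRNA reads (log scale) for the 16 members that were listed in at least 2 libraries or had 100 or more reads, ordered by their level in JB6 exosomes. Filled symbols are listed values with exact 95% intervals, and open triangles mark the level of 9 reads for a listed 0. Each JB6 exosome value lies to the right of the B16 cell value or limit of the same member. This shared direction is partly set by the choice of members. Those at 0 in B16 cells entered through their JB6 exosome reads alone, so they could only lie to the right. The member called lower in JB6 exosomes than in B16 cells was not among the 16.

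A few members were listed in B16 cells and not in either exosome library. They were miR-541-5p with 48 reads, and miR-434-5p and miR-409-5p with 11 reads each. Their sequences are shown because these are the members that the cells alone listed.
miR-434-5p: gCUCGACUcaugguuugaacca
miR-541-5p: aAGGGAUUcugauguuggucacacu
miR-409-5p: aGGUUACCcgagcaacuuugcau
miR-541-5p, from an intron of Mirg, was at 6.06 RPM in the cells and at most 2.002 RPM in the JB6 exosomes, so it was at least 3.03-fold lower there, or 1.47-fold with counting error. It no longer met the rule with TMM or DESeq2 factors or with totals that left out the 10 most abundant miRNAs. For miR-434-5p and miR-409-5p a difference was not detectable at this depth.

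The arms of single hairpins gave a comparison that needs no scaling between libraries. In JB6 exosomes miR-409 was read from the 3p arm, with 7462 reads against a listed 0, which leaves the 5p arm at most 0.12% of the reads. In B16 cells the arms had 18 and 11 reads, so the 5p arm held 37.9% (20.7 to 57.7). These 29 reads fall short of the minimum of 30, and the hairpin was picked out after its values were seen. The balance of arms differed beyond counting error between these libraries.

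Arms outside the 47 members added little in the cells and more in the JB6 exosomes. Hairpins within the span give 64 further entries, of which JB6 exosomes listed 7, with 1382 reads, B16 cells 1 and B16 exosomes none. In JB6 exosomes miR-493 was read from both arms almost alike, with 353 reads of 5p and 326 of 3p, so 5p held 52.0% (48.2 to 55.8). miR-382 had 660 reads of 5p and 346 of 3p, or 65.6% of 5p (62.6 to 68.5), and its 3p arm was also listed in B16 cells, with 10 reads. miR-411 kept 76.8% on 5p (68.9 to 83.6) and miR-485 kept 95.7% (94.06 to 96.98). The other frequent members, among them miR-127-3p and miR-543-3p, had a listed 0 for the opposite arm.

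One hairpin pair shows how the list of names affects what is counted. Mir299a lies on the plus strand and Mir299b on the minus strand of the same sequence, at chr12:109710638-109710700 and chr12:109710645-109710693. The mature sequence of each Mir299b arm lies whole within that of the same arm of Mir299a.
miR-299a-3p: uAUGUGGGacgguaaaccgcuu
miR-299b-3p: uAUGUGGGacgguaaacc
miR-299a-5p: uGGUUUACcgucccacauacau
miR-299b-5p: gGUUUACCgucccacauacau
In JB6 exosomes miR-299a-3p had 200 reads, miR-299b-3p 309 and miR-299b-5p 107, while the member miR-299a-5p was at 0. The labels do not say how reads that match both entries were assigned, so the 0 of miR-299a-5p cannot be read as absence of its sequence from the library. All 4 entries were at 0 in both B16 libraries.

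B16 exosomes were set against B16 cells, which asks whether vesicles of the melanoma line carry the cluster at another share than the cells. miR-127-3p and miR-379-5p were far more frequent in the vesicles. miR-127-3p had 32 reads, or 701 RPM (479 to 989), against 115 reads, or 14.5 RPM, in the cells. miR-379-5p had 14 reads, or 306.5 RPM (168 to 514), against 49 reads, or 6.18 RPM. The ratios were near each other, at 48.3-fold (31.6 to 71.97) and 49.6-fold (25.3 to 91.3). Of 47 members 5 had 30 or more reads over the pair. These 2 were higher, against 8.53% of 422 entries, none was lower, against 7.82%, and miR-370-3p, miR-381-3p and miR-541-5p were not resolved. Depth fixed these calls. At the cell share no member would hold more than 0.663 reads in the exosomes, so a compared member listed there had to be called higher. None could be called lower, since the upper limits at 9 reads ran from 32.5-fold to 48.8-fold. The counts are thus a description and not evidence for the cluster. The median log2 ratio of the 5 compared members was 5.59, against 1.82 over the 422 entries, with 9 reads for a listed 0. The values of the 3 unresolved members in it are upper limits set by depth, so it is not a measured shift. miR-127-3p and miR-379-5p stayed higher under every scaling tried, with ratios of 23.8 and 24.5 under TMM and 2.86 and 2.94 under the authors' totals. Among all entries the calls went from 36 higher and 33 lower to 16 and 93 with TMM and 33 and 38 with DESeq2. Under the authors' totals they were 9 and 257.

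The depth of the B16 exosome library allowed no comparison with the cells for the rest of the cluster. At the share that each member had in B16 cells, the exosome library would hold at most 0.663 reads of any of them. The 9 members listed in the cells and not in the exosomes were therefore not detectable at this depth, and their zeros do not show that they were kept out of the vesicles.

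B16 exosomes were set against JB6 exosomes, which asks whether vesicles of a melanoma line and of a normal skin line differ in the cluster. miR-409-3p and miR-543-3p were lower in the B16 exosomes, while miR-127-3p and miR-379-5p were listed in both libraries and their ratios depended on the scaling. At the JB6 exosome share, the B16 exosome library would hold 75.8 reads of miR-409-3p, 71.2 of miR-543-3p and 57.8 of miR-127-3p. It listed 0, 0 and 32. miR-409-3p was thus at least 8.42-fold lower and miR-543-3p at least 7.91-fold lower in the B16 exosomes, or 4.43-fold and 4.17-fold with counting error. The ratio of miR-127-3p was 0.554 (0.379 to 0.783), short of the 2-fold rule, and that of miR-379-5p was 2.24 (1.22 to 3.79). None of the other 17 members listed in JB6 exosomes would reach 10 reads at this depth, and the highest of those at 0, miR-485-5p, would hold 7.89.

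**Figure D3:**
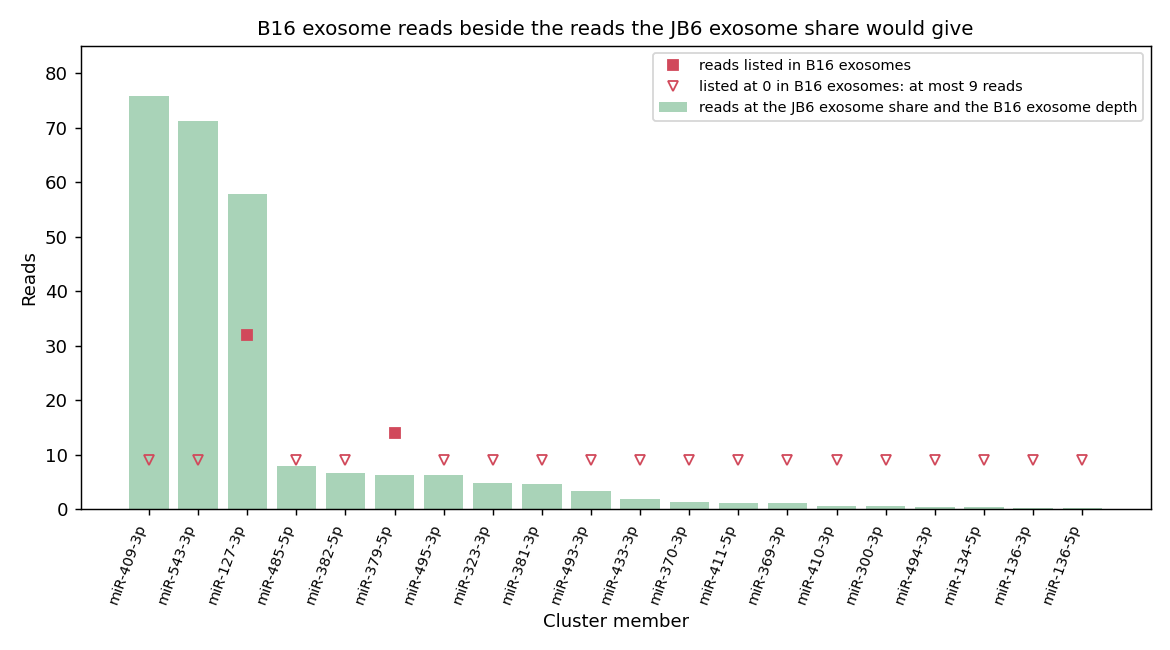
Reads in the B16 exosome library for the 20 members listed in JB6 exosomes. Bars give the reads that the JB6 exosome share would yield at the B16 exosome depth of 45677 miRNA reads, squares give the reads listed in B16 exosomes and open triangles mark the limit of 9 reads for a listed 0. The bars of miR-409-3p and miR-543-3p reach 75.8 and 71.2 reads, far above the limit of 9.

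By count, 17 of 47 members had 30 or more reads over the exosome libraries. Of these 1 was higher, against 31.3% of 300 entries, and 2 were lower, against 11.7%, with miR-127-3p neither and 13 not resolved. Members at 0 in B16 exosomes had enough reads only through the JB6 library and could not be called higher. The share called lower, 11.8%, is near that of all entries. These counts are a description and not evidence for the cluster. The median log2 ratio of the 17 was 1.16, and that of the 300 entries 2.85. It consists mostly of upper limits, since 15 of the 17 were at 0 in B16 exosomes. Scaling turned this comparison. The calls became 0 higher and 9 lower with TMM, 0 and 10 with DESeq2 factors, and 0 and 12 under the authors' totals. These shifted each log2 ratio by -2.37, -2.70 and -3.89. Among all entries the 94 higher and 35 lower became 61 and 97, 57 and 109, and 40 and 153. miR-379-5p was lower under each of these. miR-127-3p was lower under each of them, with ratios of 0.107, 0.085 and 0.0374, and at 0.364 with totals that left out the 10 most abundant miRNAs, while miR-409-3p and miR-543-3p were lower under every scaling tried.

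Ratios between members of 1 library do not depend on scaling, and they were computed for pairs picked after the values were seen. In the balance of miR-127-3p and miR-379-5p, B16 exosomes lay near B16 cells and apart from JB6 exosomes. There were 2.35 reads of miR-127-3p per read of miR-379-5p in B16 cells (1.67 to 3.35), 2.29 in B16 exosomes (1.19 to 4.64) and 9.24 in JB6 exosomes (8.50 to 10.1). The intervals of the B16 libraries overlapped, and neither reached that of the JB6 exosomes. The B16 exosome ratio rests on 32 reads of miR-127-3p and 14 of miR-379-5p. With counts below 10 listed as 0, a balance like that of JB6 exosomes would most likely have left miR-379-5p unlisted there. The interval does not account for this cut, so the nearness to B16 cells is partly set by it. miR-409-3p had 0.157 reads per read of miR-127-3p in B16 cells (0.0896 to 0.259), at most 0.281 in B16 exosomes and 1.31 in JB6 exosomes (1.27 to 1.36). miR-543-3p had at most 0.0783, at most 0.281 and 1.23 (1.19 to 1.28). Taking counting error into the limits, the B16 exosome value was at most 0.603 for each of these ratios, still below the JB6 exosome interval. Between the deep libraries, miR-381-3p per miR-300-3p went from 2.61 in B16 cells (1.49 to 4.78) to 9.29 in JB6 exosomes (6.89 to 12.8). miR-379-5p per miR-411-5p went from 1.96 (1.19 to 3.31) to 5.80 (4.71 to 7.20). miR-381-3p per miR-127-3p went the other way, from 0.409 (0.285 to 0.579) to 0.0785 (0.0711 to 0.0864). The make-up of the cluster thus differed between B16 cells and JB6 exosomes beyond counting error, in addition to its summed level.

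**Figure D4:**
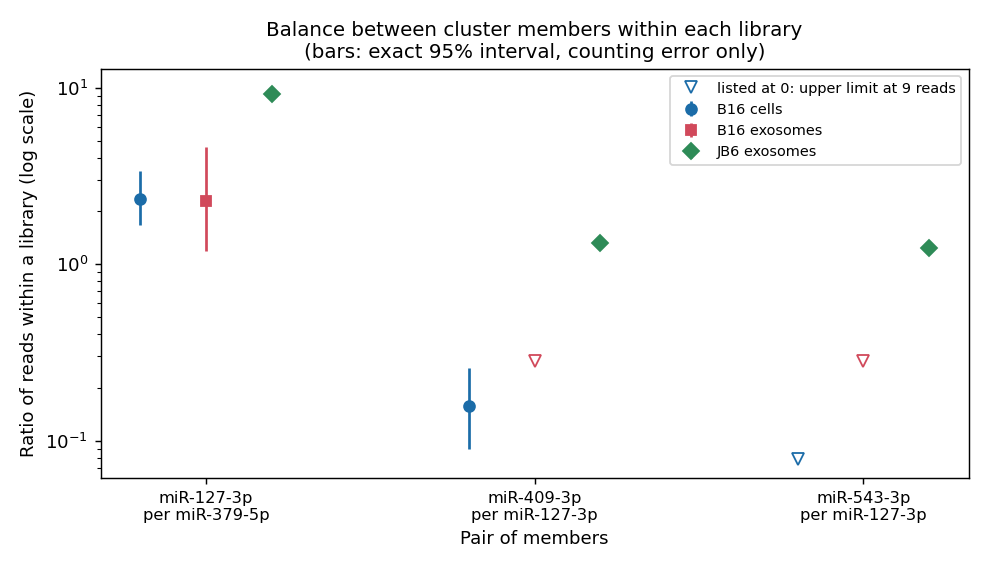
Ratio of reads between pairs of members within each library (log scale), with exact 95% intervals for listed values and open triangles for upper limits taken at 9 reads. B16 cells and B16 exosomes lie at 2.35 and 2.29 for miR-127-3p per miR-379-5p, against 9.24 in JB6 exosomes, and in the other 2 pairs plotted, miR-409-3p and miR-543-3p per miR-127-3p, the B16 values or limits lie below the JB6 exosome values.

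Markers of other tissues were, like the cluster, more frequent in JB6 exosomes than in B16 cells. The liver miRNA miR-122-5p, 1 of 1 listed, stood at 251231 RPM in JB6 exosomes, 525 RPM in B16 exosomes and 53.1 RPM in B16 cells. Of 4 red-cell entries JB6 exosomes listed 4, B16 cells 3 and B16 exosomes 0, at 14816, 40.2 and 0 RPM in sum, with miR-144-3p at 0 in both B16 libraries. Of 3 skeletal-muscle miRNAs the same libraries listed 3, 1 and 0, at 3707, 1.39 and 0 RPM, with miR-133a-3p and miR-206-3p at 0 in both B16 libraries. Each 0 in B16 exosomes allows 197 RPM, so the red-cell and muscle lists are not resolved there. The labels do not describe the culture medium, and whether miRNAs from outside the JB6 cells, such as those of serum in the medium, contributed to the JB6 exosome reads was not tested.

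The members at 0 in all 3 libraries were miR-770-3p, miR-673-5p, miR-337-5p, miR-540-3p, miR-665-3p, miR-431-5p and miR-434-3p of the first block and miR-341-3p of the second. In the third block they were miR-299a-5p, miR-380-5p, miR-758-3p, miR-329-3p, miR-679-5p, miR-666-5p, miR-667-3p, miR-376c-3p, miR-376b-3p, miR-376a-3p, miR-487b-3p, miR-539-5p, miR-668-3p, miR-154-5p, miR-496a-3p and miR-377-3p. The miR-376 miRNAs, whose precursors are edited by adenosine deaminases in brain, were thus unlisted throughout. These zeros allow up to 2.002 RPM in JB6 exosomes and 1.14 RPM in B16 cells for each. In base composition the listed and unlisted members overlapped. Among JB6 exosome entries the 19 listed members with a sequence had a median G and C content of 47.6%, from 23.8% to 68.2%, and the 25 at 0 had 50%, from 36.4% to 72.7%. Of those 19 members 14 were 3p arms, against 13 of the 25.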

How the data were processed

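Small RNA from B16 cells, B16 exosomes and JB6 exosomes had been sequenced in 1 library each, after Trizol extraction, per the labels' protocols. Tools named in the submitters' processing notes are bcl2fastq and BWA, with the build mm10. Their versions, trimming, the miRNA release, strand use and the assignment of reads with several matches: not given in the sources used here. The deposited count of each mature miRNA is not normalized, and values below 10 are listed as 0. The authors' normalized value is in RPM, the count over a total of 8721363, 847694 and 5626936 reads in B16 cells, B16 exosomes and JB6 exosomes, whose content is not given.

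Shares were taken of the summed miRNA reads. Ratios over all 1915 entries carry exact conditional binomial 95% intervals (scipy 1.17.1), checked on simulated counts, and a listed 0 was set to 9 reads. Alternatives were TMM (edgeR 4.0.16), DESeq2 1.42.0 size factors, the authors' RPM, summed arms, a total that leaves out the 10 most abundant miRNAs, other read minimums (none, 10, 100) and a bound of the interval at 2-fold. Members listed in 2 or more libraries or with 100 or more reads were named. The other members given with values, and the pairs of members, were picked with their values in view. The members and lists were chosen with earlier results of these data known. Positions are from RefSeq and hosts from GENCODE M21, both on GRCm38, the build named mm10. RefSeq sequences were used for 44 of 47 members.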

Additional observations from a re-analysis of the deposited data

How the results depend on the processing

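No paired analysis was possible because each group held 1 library. Of the B16 exosome counts, 1 member was higher with a minimum of 100 reads, which leaves 1 member to compare. The single member lower in JB6 exosomes than in B16 cells became 0 with TMM, DESeq2, totals without the 10 most abundant miRNAs, a minimum of 100 reads, or an interval bound of 2-fold. Between the exosome libraries 0 members were higher under those 3 scalings, the authors' totals and the interval bound, and 9, 10 and 12 were lower with TMM, DESeq2 and the authors' totals. There the median log2 ratio turned to -1.20, -1.54 and -2.73, and the ratio of miR-379-5p to 0.434, 0.344 and 0.151. The summed share of the cluster became 120.1, 2583 and 21500.1 RPM in B16 cells, B16 exosomes and JB6 exosomes without the 10 most abundant miRNAs in the total. With the authors' RPM it was 54.3 in B16 exosomes and 4403 in JB6 exosomes. With both arms of all hairpins it was 5817 RPM in JB6 exosomes. With 9 reads for each listed 0, an alternative chosen after seeing the data, it was 89.7 RPM in B16 cells and 9874 RPM in B16 exosomes. At 100 reads or more, 1 member was listed in B16 cells and 0 in B16 exosomes. The changes under another scaling follow from the total alone, and 48 of the other counts and sums stayed within 1.5 times or within their interval. Depth limits the B16 exosome library most, where a listed 0 allows 197 RPM.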
